A study of Homo sapiens with 6 samples.

Results

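Mucins are the large, heavily O-glycosylated proteins that make up mucus and the glycocalyx of epithelia. Gel-forming mucins such as MUC5B and MUC5AC are secreted and assemble into polymers, whereas MUC1 and MUC16 span the cell membrane and are known as CA15-3 and CA125, markers followed in breast and ovarian cancer. SLPI, the secretory leukocyte protease inhibitor, is a small WAP-domain protein that epithelia secrete beside mucus and that blocks neutrophil elastase. Counts are described here for these 5 genes and for MUC5B-AS1, an antisense RNA gene inside MUC5B, which makes 6 of the 57209 genes in the tables. The 6 genes were taken by name, and they were chosen from results of the same comparison that is described for them. Their values are therefore a description, with no test of their own. For each of them the gene with an exon on the opposite strand was looked up as well. MUC5B and MUC5B-AS1 were each other's such gene, and the other 4 had none.

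The RNA was from the human line MB157, long established from a triple-negative breast cancer, which carried the Cas9 nuclease in both groups according to the sample titles. The series text describes the cells as stably expressing SOX9, and both groups share whichever of these applies. One group of 3 libraries received an sgRNA against SOX9, which encodes an SRY-related transcription factor, and the other 3 libraries received a control sgRNA. In both groups the guide acted for 4 days and the 50% of cells with the highest sgRNA expression were sorted by flow cytometry. The comparison addresses which genes depend on SOX9. The labels call the replicates technical, so the standard errors and p-values below measure only the spread between these libraries.

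Libraries held 776125 to 1018854 counts, and 7959 genes had enough of them to be tested. SOX9 itself averaged 51.2 ± 6.94 CPM in SOX9 sgRNA libraries and 60.0 ± 8.15 CPM in control libraries (SD, n = 3 each), a log2 fold change of -0.22 (SE 0.26, adjusted p = 0.70 by edgeR's quasi-likelihood test with Benjamini-Hochberg adjustment). CPM is the depth-scaled count, relative to the library's counts in tested genes and edgeR's TMM factors. Every log2 fold change sets SOX9 sgRNA over control, and a gene is called where its adjusted p lies under 0.05. The 8 markers of simple and luminal epithelium were all detected and summed to 926 to 1140 CPM in SOX9 sgRNA libraries and 1170 to 1220 CPM in control libraries, with KRT19 and KRT7 called lower and the other 6 not called, of which KRT8 (log2 fold change 0.11) and KRT18 (0.33) were above 0. Goblet and airway secretory markers summed to 4.82 to 5.84 CPM in SOX9 sgRNA libraries and 0 to 8.89 CPM in control libraries, with TFF3 and BPIFB1 at 0. Basal and myoepithelial markers summed to 245 to 259 CPM in SOX9 sgRNA libraries and 224 to 269 CPM in control libraries, with TP63 and OXTR at 0. Within that list the directions differed. KRT14 held 7 counts in SOX9 sgRNA libraries and 39 in control libraries, KRT17 21 and 3, and ACTA2 6 and 0, all too few for a test. KRT5 had a log2 fold change of 0.41 and MYLK of -0.18, neither called. Fibroblast markers summed to 3.89 to 15.7 CPM in SOX9 sgRNA libraries and 4.01 to 7.19 CPM in control libraries, with LUM at 0. For the triple-negative label, ESR1 held 9 counts in SOX9 sgRNA libraries and 3 in control libraries, PGR held 15 in SOX9 sgRNA libraries and 11 in control libraries, and ERBB2, which has 2 genes opposite it, held 537 in SOX9 sgRNA libraries and 484 in control libraries. The libraries were made with a stranded kit and counted with strand setting 1. Among 273 pairs of a gene and the overlapping antisense gene named after it, both tested, the antisense gene held more counts than its partner in the control libraries for 208. The named gene's share of its pair in control libraries was 0.169% for TUBA1B and 0.586% for MIF, but 93.8% for EEF1A1 and 92.4% for ENO1. These pairs also differed in overlap. It covered 80.2% of the antisense gene's exon length for TUBA1B and 46.5% for MIF, but 22.4% for EEF1A1 and 27.6% for ENO1. PITPNA had an overlap of 69.9% and a share of 95.1%. The part of the overlap in the shares was not tested. All counts, those of SOX9 and the markers above included, are therefore given by the strand on which they were counted. Whether the transcript of the named gene or one from the opposite strand gave them was not tested. Of the markers named above, KRT8 and KRT18 lie opposite each other, and KRT7, ACTA2 and MYLK also have genes opposite them. The limit also holds for genes with no annotated gene opposite them.

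The counts on both strands of the MUC5B locus were lower with the SOX9 sgRNA, and those of MUC5B-AS1 by far the more. MUC5B-AS1 (ENSG00000255177, chromosome 11, 1263491 to 1270906, minus strand, GRCh37) held 5, 3 and 7 counts in the SOX9 sgRNA libraries, against 123, 123 and 121 in the control libraries. The groups lay far apart, the highest SOX9 sgRNA library at 6.81 CPM and the lowest control library at 156 CPM. MUC5B-AS1 averaged 5.58 ± 1.51 CPM in SOX9 sgRNA libraries and 165 ± 8.90 CPM in control libraries (SD, n = 3 each). Its log2 fold change was -4.82 (SE 0.30), and the ratio of summed counts, 15 against 367, was 0.0347 with an exact 95% counting interval of 0.0192 to 0.058. Such intervals cover counting error only. In sorted cells measured in bulk, fewer cells with a transcript and less of it per cell cannot be told apart.

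MUC5B-AS1 is a short 2-exon transcript that runs against the grain of the mucin message, and its sequence is shown because its exons define the stretch that is counted on that strand. The sequences are those of GENCODE release 29 on GRCh38, minus strand, and the exon and intron lengths there equal those in the tables. Exon 1 is 56 bases long and lies at chr11:1249621-1249676. The MUC5B message opposite it, on the plus strand, is its reverse complement. The edge lines, each part exon and part intron, span chr11:1249601-1249640 and chr11:1242619-1242658. Their capitals mark the GT that begins the intron of 6982 bases and the AG that ends it.
MUC5B-AS1 exon 1: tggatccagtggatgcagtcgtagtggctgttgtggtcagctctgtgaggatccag
MUC5B message opposite exon 1: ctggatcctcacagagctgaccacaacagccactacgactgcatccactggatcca
exon 1 and start of intron: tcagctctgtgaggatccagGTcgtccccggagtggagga
end of intron and exon 2: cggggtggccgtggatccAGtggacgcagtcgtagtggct

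The start of exon 2 is a near copy of exon 1. From base 10 of exon 1, 47 bases align with the first bases of exon 2 at 93.6% identity, and the capitals mark the 3 bases that differ. The aligned stretch of exon 1 lies at chr11:1249621-1249667 and that of exon 2 at chr11:1242592-1242638.
exon 1, aligned bases: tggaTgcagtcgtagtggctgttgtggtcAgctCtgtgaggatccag
exon 2, aligned bases: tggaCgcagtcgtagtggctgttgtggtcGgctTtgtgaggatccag
The MUC5B message read antisense held 12 stretches within 10 differences of the 47 aligned bases of exon 1, both aligned stretches among them. Each whole exon occurred in it once. Of the 385 windows of 50 bases along MUC5B-AS1, 344 occurred in it once and 0 more than once.

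Both exons and the intron of MUC5B-AS1 lie within a single exon of MUC5B. This is exon 30 of 48 in the tables (chromosome 11, 1262081 to 1272973, GRCh37), which is 10893 bp long and makes up 58.5% of MUC5B's exon length. It is the large central exon that encodes the threonine- and serine-rich repeats to which O-glycans attach. The 434 bp of the antisense exons are 100% of MUC5B-AS1 and 2.33% of the exon length of MUC5B. Within MUC5B's exons, a minus-strand fragment outside those 434 bp had no annotated gene to be counted for.

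**Figure D1:**
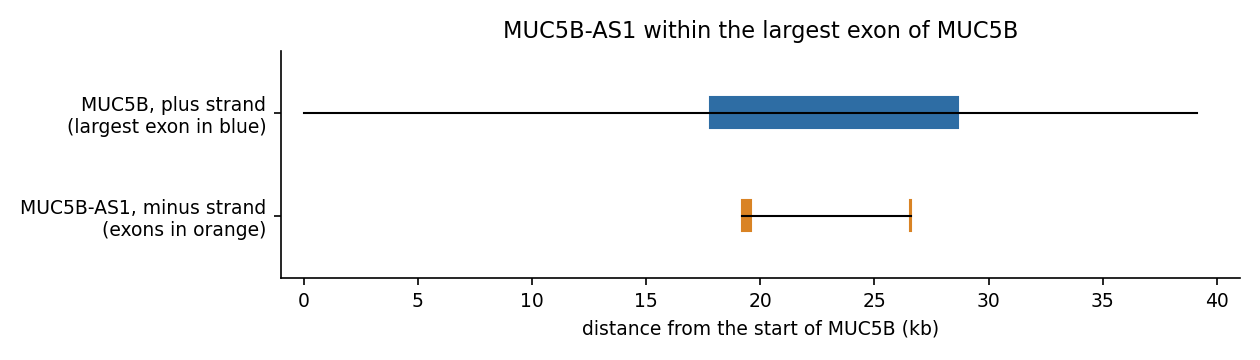
MUC5B on the plus strand and MUC5B-AS1 on the minus strand, by distance from the start of MUC5B in kb. The largest MUC5B exon (blue, 10893 bp) contains both MUC5B-AS1 exons (orange, 378 and 56 bp) and the intron between them.

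MUC5B (ENSG00000117983, chromosome 11, 1244296 to 1283406, plus strand, GRCh37) encodes the main gel-forming mucin of airway and salivary mucus. It held 11, 4 and 12 counts in the SOX9 sgRNA libraries, against 30, 30 and 29 in the control libraries. The groups did not overlap, and SOX9 sgRNA library 2 was the lowest of the 6. MUC5B averaged 10.0 ± 4.27 CPM in SOX9 sgRNA libraries and 39.9 ± 1.80 CPM in control libraries (SD, n = 3 each), a log2 fold change of -1.95 (SE 0.40). The ratio of summed counts, 27 against 89, was 0.258 (0.161 to 0.4). Control libraries 1 and 2 held the same counts of MUC5B and of MUC5B-AS1, yet they were not the same library. Over the better-counted genes they differed by a chi-square of 2.3 per degree of freedom.

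Per kb of exon MUC5B-AS1 was the denser of the pair in every library. The 434 bp of MUC5B-AS1 were set against all exons of MUC5B, so the stretches compared were not the same. Repeats within MUC5B were not allowed for. In SOX9 sgRNA libraries MUC5B-AS1 held 11.5, 6.91 and 16.1 counts per kb, against 283, 283 and 279 in control libraries. MUC5B held 0.591, 0.215 and 0.645 counts per kb in SOX9 sgRNA libraries, against 1.61, 1.61 and 1.56 in control libraries. Summed over libraries, the density of MUC5B-AS1 was 23.8 times that of MUC5B with the SOX9 sgRNA and 177 times with the control sgRNA. The difference between the genes of the pair was thus present in both groups, and smaller with the SOX9 sgRNA.

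The division of the pair's counts between the strands also differed between the groups. MUC5B's share of the pair was 68.8% in SOX9 sgRNA library 1 (exact 95% interval 41.3 to 89), 57.1% in library 2 (18.4 to 90.1) and 63.2% in library 3 (38.4 to 83.7). In control libraries 1 to 3 it was 19.6% (13.6 to 26.8), 19.6% (13.6 to 26.8) and 19.3% (13.3 to 26.6). All 3 shares with the SOX9 sgRNA lay above all 3 with the control sgRNA. Over the groups the share was 64.3% of 42 counts with the SOX9 sgRNA (48 to 78.4) and 19.5% of 456 counts with the control sgRNA (16 to 23.5). The few counts behind the SOX9 sgRNA shares give them wide intervals, and library 2 rests on 7 counts.

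**Figure D2:**
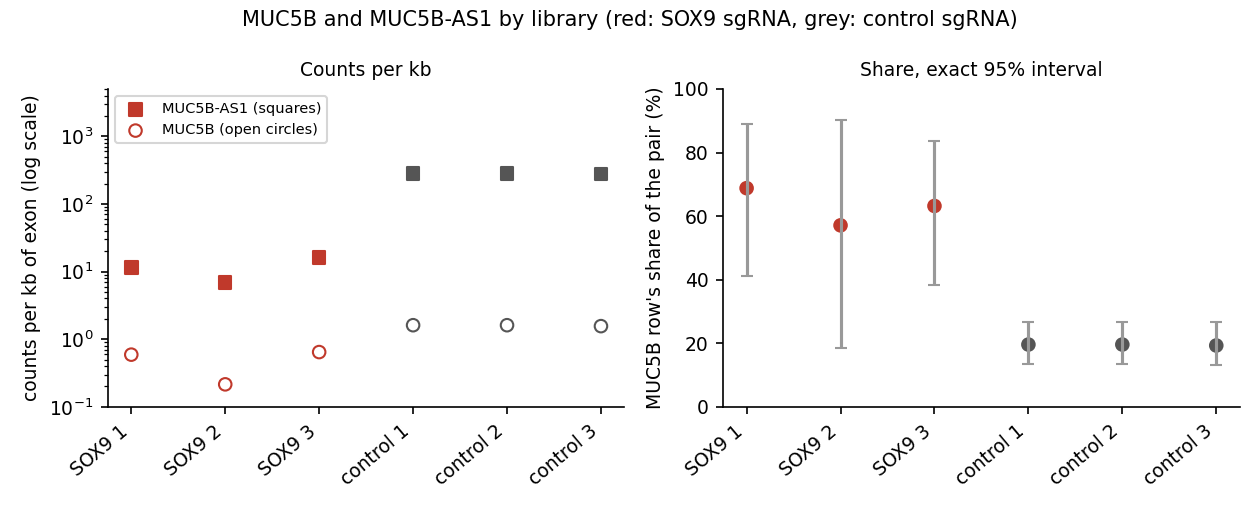
Left, counts per kb of exon on a log scale for MUC5B-AS1 (filled squares) and MUC5B (open circles) in each library, red for SOX9 sgRNA and grey for control sgRNA. Right, MUC5B's share of the counts of the pair in percent with exact 95% intervals, between 57.1 and 68.8 with the SOX9 sgRNA and between 19.3 and 19.6 with the control sgRNA.

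Set beside other genes with an antisense partner of the same name, MUC5B-AS1 had the lowest log2 fold change of the 273 antisense genes. Its value minus that of MUC5B was -2.86, where the other pairs ran from -2.23 to 1.77, with a median of -0.08 over all pairs. The pair nearest to it was TMEM139, at -2.23. Of the pairs, 161 had the same sign on both strands, as MUC5B did, and 107 had opposite signs. MUC5B's share in control libraries, 19.5%, was close to the median share of 21.3% for the genes of these pairs. This placing restates the values by which the locus was chosen.

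**Figure D3:**
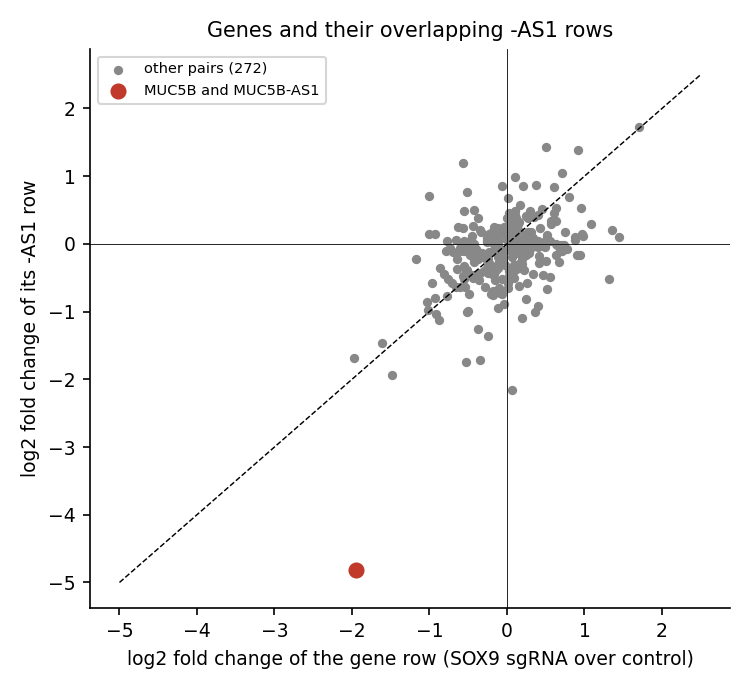
Log2 fold change, SOX9 sgRNA over control, of each gene (horizontal) and of its overlapping antisense gene (vertical) for 273 pairs, with the line of equal change dashed. MUC5B with MUC5B-AS1 (red, -1.95 and -4.82) is the lowest point.

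SLPI was the only member that was tested and called higher in the SOX9 sgRNA libraries. SLPI (ENSG00000124107, chromosome 20, 43880880 to 43883205, minus strand, GRCh37) held 18, 13 and 26 counts in them, against 1, 5 and 5 in the control libraries. The groups did not overlap, and control library 1 was the lowest. SLPI averaged 21.3 ± 4.22 CPM in SOX9 sgRNA libraries and 4.96 ± 3.17 CPM in control libraries (SD, n = 3 each), a log2 fold change of 2.09 (SE 0.59). The ratio of summed counts, 57 against 11, was 4.40 (2.29 to 9.31). The direction of SLPI was opposite to that of MUC5B and MUC5B-AS1. SLPI has no annotated gene opposite it, and whether its own transcript gave the counts on its strand was not tested.

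The call of SLPI rested on few control counts. It was past the threshold in 3 of the 6 fits that left out a library, and was lost without SOX9 sgRNA library 1 (log2 fold change 2.07) or 3 (1.93) and without control library 1 (1.64). MUC5B and MUC5B-AS1 were past it whichever library was left out, with values of -2.17 to -1.68 for MUC5B and -5.0 to -4.65 for MUC5B-AS1. Of the 3 members tested, 2 were thus lower and 1 was higher. Over all genes tested 9.01% were called, 2.99% higher and 6.02% lower, and for all 3 members the groups did not overlap, which held for 24.5% of all genes tested. The members were chosen on this contrast. Their calls and the fits that left out a library are therefore a description and no test of them, and nothing is read from these shares. All genes tested had a median of 0.01 on the same log2 scale.

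MUC1, MUC16 and MUC5AC had too few counts to be tested, and their directions are values without a call. No gene is annotated opposite them, and here too whether their own transcripts gave the counts was not tested. MUC1 (ENSG00000185499, chromosome 1, 155158300 to 155162707, minus strand, GRCh37), the membrane mucin whose cytoplasmic tail binds signalling proteins, held 6, 6 and 8 counts in the SOX9 sgRNA libraries, against 4, 5 and 1 in the control libraries. The groups did not overlap in CPM, and control library 3 was the lowest. MUC1 averaged 7.6 ± 0.327 CPM in SOX9 sgRNA libraries and 4.38 ± 2.59 CPM in control libraries (SD, n = 3 each), and the ratio of summed counts, 20 against 10, was 1.70 (0.759 to 4.07), an interval that includes equal levels. MUC1 shares 48 bp of exon on its own strand with ENSG00000273088, which held 28 counts in SOX9 sgRNA libraries and 28 in control libraries, and a fragment there could count for both.

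MUC16 (ENSG00000181143, chromosome 19, 8959520 to 9092018, minus strand, GRCh37) encodes the largest of the membrane mucins, the ligand of mesothelin. It held 2, 6 and 4 counts in the SOX9 sgRNA libraries, against 1, 0 and 1 in the control libraries. The groups did not overlap, but SOX9 sgRNA library 1 and all control libraries held fewer than 3 counts, a level of 2.92 to 4.31 CPM depending on the library. The ratio of summed counts, 12 against 2, was 5.10 with an interval of 1.13 to 46.9. MUC5AC (ENSG00000215182, chromosome 11, 1151580 to 1222364, plus strand, GRCh37) encodes a gel-forming mucin of the airway surface and stomach. It held 0, 0 and 1 counts in the SOX9 sgRNA libraries and 0, 0 and 0 in the control libraries. Both groups of MUC5AC lay under the level of 3 counts per library, so no ratio is given.

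Small counts were in general a little more often higher with the SOX9 sgRNA. Among 3612 genes with 10 to 19 counts over all libraries, as MUC16 had, 56.9% had the higher CPM in SOX9 sgRNA libraries, and the groups were apart in that direction for 7.89%. Among 3616 genes with 20 to 40 counts, as MUC1 had, these shares were 56.7% and 8.52%. SOX9 sgRNA libraries also detected more genes, 20207 to 21082, than control libraries, with 18326 to 18818. The part of this difference in the values of MUC1 and MUC16 was not tested.

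**Figure D4:**
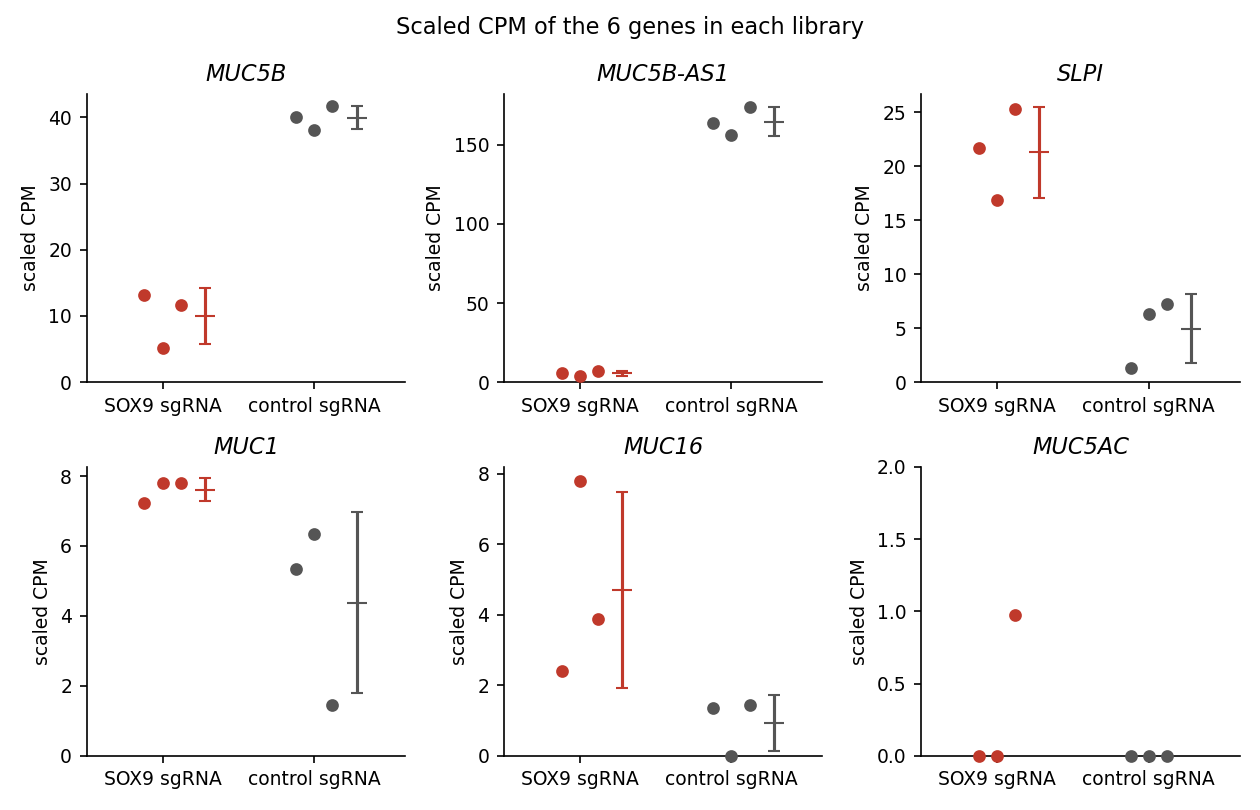
Scaled CPM of the 6 genes in each library, SOX9 sgRNA (red) left of control sgRNA (grey), with mean and SD beside the points except for MUC5AC, which had 1 count in all. MUC5B and MUC5B-AS1 lie lower in all SOX9 sgRNA libraries and SLPI higher, and the panels of MUC1, MUC16 and MUC5AC rest on few counts.

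Per kb of exon, the scale on which levels of different genes can be set side by side, 4 members had means above the level of 3 counts in both groups. In SOX9 sgRNA libraries SLPI had 35.7 ± 7.08 CPM per kb, MUC5B-AS1 12.9 ± 3.47, MUC1 3.17 ± 0.136 and MUC5B 0.540 ± 0.229 (SD, n = 3 each). In control libraries MUC5B-AS1 had 380 ± 20.5 CPM per kb, SLPI 8.32 ± 5.31, MUC5B 2.15 ± 0.0968 and MUC1 1.82 ± 1.08. MUC5B and MUC1 did not differ beyond their spread in the control libraries. These are levels of counts on the exons of the named strand, and the order of the transcripts themselves is not read from them, for the reason given with the antisense pairs. MUC16 and MUC5AC are left out of the order.

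Repeats limit how completely mucin messages can be counted, and the genes differ in this. In GENCODE transcripts 70.4% of 50-base windows of MUC5B were unique, with 29.2% repeated within the transcript itself. The share was 57.6% for MUC1, 78.2% for MUC5AC and 98.9% for MUC16. SLPI and MUC5B-AS1 had 100% unique windows. Matches between MUC5B and MUC5B-AS1, which lie on opposite strands, were left out of these shares. MUC5AC was also incomplete in the annotation used for counting, with 5930 bp of exon where the longest GENCODE release 29 transcript has 17448.

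The surroundings of MUC5B and SLPI were looked up, and both tested neighbours of MUC5B that are not members were not called. Within 100 kb of MUC5B 5 other genes are annotated, the members MUC5B-AS1 and MUC5AC among them. Of those that are not members, 2 had at least 10 counts. TOLLIP, an adaptor of Toll-like receptor signalling that lies 12195 bp away, averaged 21.9 ± 9.67 CPM in SOX9 sgRNA libraries and 18.4 ± 0.527 CPM in control libraries (log2 fold change 0.23, SE 0.42, adjusted p = 0.827 by edgeR), and without SOX9 sgRNA library 1 the value was -0.17. ENSG00000267950 averaged 38.0 ± 6.87 CPM in SOX9 sgRNA libraries and 38.2 ± 6.27 CPM in control libraries (log2 fold change -0.01, SE 0.31, adjusted p = 0.995 by edgeR). The other gel-forming mucin genes of the same cluster were low: MUC6 held 29 counts in SOX9 sgRNA libraries and 17 in control libraries, and MUC2 held 0 in both. Near SLPI, 1 of 8 annotated genes reached 10 counts, the heparan sulphate proteoglycan gene SDC4 with 13 in each group, too few for a test. PI3, which encodes elafin, the WAP-domain inhibitor closest in function to SLPI, held 0 counts in both groups.

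The genes most like each called member across the 6 libraries were found by the root mean square difference of centred log2 CPM among 7318 genes whose log2 CPM averaged 4 or more. For MUC5B these were SERTAD4 (0.15), ENSG00000254204 (0.25) and the hexokinase gene HK2 (0.26). SERTAD4 averaged 5.95 ± 3.01 CPM in SOX9 sgRNA libraries and 24.1 ± 3.4 CPM in control libraries. For MUC5B-AS1 they were ENSG00000227407 (0.23), which lies opposite TTYH1, ENSG00000267893 (0.24), which lies opposite SOX9-AS1, and LINC01152 (0.45). ENSG00000267893 (chromosome 17, 70036164 to 70036872, plus strand) averaged 8.74 ± 4.11 CPM in SOX9 sgRNA libraries and 235 ± 21.3 CPM in control libraries, and LINC01152 (chromosome 17, 70026432 to 70034889, plus strand) 8.30 ± 3.00 CPM in SOX9 sgRNA libraries and 169 ± 14.4 CPM in control libraries (SD, n = 3 each). Both lie upstream of SOX9 on its chromosome. For SLPI they were ENSG00000235978 (0.25), opposite the calcium channel gene ITPR1, ENSG00000226786 (0.30) and ENSG00000214614 (0.34). This likeness was picked from the same libraries and is a description.

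Most other mucins and secreted products had too few counts to be tested, and none was called. Of 18 other mucins and mucin-like genes, 2 were tested and 0 were called. These were the sialomucins PODXL, with 50.2 ± 4 CPM in SOX9 sgRNA libraries and 34.6 ± 9.12 CPM in control libraries (log2 fold change 0.54, SE 0.30, adjusted p = 0.307 by edgeR), and CD164, with a log2 fold change of 0.52 (SE 0.54, adjusted p = 0.657 by edgeR). Both had an unadjusted p above 0.05. Of the other 16, 8 had no counts. None of the 26 other secretory epithelial products found in the tables was tested, and 17 of them, which include trefoil factors and secretoglobins, had no counts. CHI3L2, a chitinase-like lectin, was among the most counted with 23 in SOX9 sgRNA libraries and 40 in control libraries.

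Of 27 enzymes that build mucin O-glycans 9 were tested, of which 1 was called higher, 1 lower and 7 not, with a median log2 fold change of -0.32. Over all genes tested 2.99% were called higher and 6.02% lower, and with so few genes tested these counts, like those of the lists that follow, are not read as particular to a list. ST6GALNAC2, a sialyltransferase that caps O-glycans, fell to 2460 ± 218 CPM in SOX9 sgRNA libraries, against 3720 ± 27.3 CPM in control libraries (SD, n = 3 each; log2 fold change -0.60, SE 0.06, adjusted p = 1.31e-11 by edgeR). It lies opposite 2 genes. The non-coding gene SNHG16 fell as well, to 124 ± 21.0 CPM in SOX9 sgRNA libraries, against 223 ± 29.7 CPM in control libraries (log2 fold change -0.84, SE 0.16, adjusted p = 4.19e-05 by edgeR). ENSG00000267078, the other, had 26 ± 6.01 CPM in SOX9 sgRNA libraries and 22.6 ± 9.68 CPM in control libraries (log2 fold change 0.22, SE 0.38, adjusted p = 0.826 by edgeR). GALNT11, one of the transferases that add the first sugar, rose to 57.6 ± 4.24 CPM in SOX9 sgRNA libraries, against 31.6 ± 5.50 CPM in control libraries (log2 fold change 0.87, SE 0.29, adjusted p = 0.0434 by edgeR). ENSG00000229591 opposite it had 101 ± 28.5 CPM in SOX9 sgRNA libraries and 111 ± 9.98 CPM in control libraries (log2 fold change -0.13, SE 0.19, adjusted p = 0.787 by edgeR). The call of GALNT11 was lost whichever library was left out, with values of 0.72 to 0.96, and also with DESeq2, without a filter and with the replicate block. GALNT7 had a log2 fold change of -1.08 (SE 0.40, adjusted p = 0.0813 by edgeR) and passed the threshold without SOX9 sgRNA library 1 (-1.43) or control library 1 (-1.38). Opposite GALNT7 lie GALNT7-DT, with -0.56 (adjusted p = 0.0939 by edgeR), and ENSG00000248774, with -0.07 (adjusted p = 0.934 by edgeR). GALNT1 had -0.44 (SE 0.43, adjusted p = 0.629 by edgeR).

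Regulators of secretory cells, protease inhibitors and partners of the membrane mucins gave a single call, that of SPINT1. Of 20 secretory regulators and folding factors 9 were tested and 0 called, 1 of them at an unadjusted p under 0.05, with a median log2 fold change of -0.24. ELF3, an epithelial ETS factor, had 74.7 ± 9.93 CPM in SOX9 sgRNA libraries and 112 ± 20 CPM in control libraries (log2 fold change -0.57, SE 0.20, adjusted p = 0.0636 by edgeR), and passed the threshold without control library 2 (-0.70). ELF3-AS1 opposite it had a log2 fold change of 0.23 (adjusted p = 0.835 by edgeR). PDIA3 had a log2 fold change of -0.35, CREB3L4 of -0.28 and ERN2 of 0.40, none of them called. SPDEF, which drives goblet cell differentiation, held 2 counts in SOX9 sgRNA libraries and 0 in control libraries, and AGR2, a folding factor of mucins, held 11 in SOX9 sgRNA libraries and 7 in control libraries.

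Of 28 WAP-domain and other serine protease inhibitors and their target proteases 4 were tested, and 1 was called, lower, with a median of 0.00. SPINT1, a Kunitz inhibitor of matriptase, fell to 139 ± 10.8 CPM in SOX9 sgRNA libraries, against 195 ± 14.3 CPM in control libraries (log2 fold change -0.48, SE 0.15, adjusted p = 0.0330 by edgeR). It kept its call in 2 of 6 fits that left out a library, with values of -0.55 to -0.42, and lost it with library totals (-0.29). SPINT1-AS1 opposite it had a log2 fold change of -0.11 (adjusted p = 0.894 by edgeR). SERPINB6 had 0.67 (SE 0.36, adjusted p = 0.294 by edgeR), SPINT2 -0.25 (SE 0.20, adjusted p = 0.530 by edgeR) and PLAT 0.25 (SE 0.47, adjusted p = 0.837 by edgeR), a sign that turned to -0.01 without SOX9 sgRNA library 2. ELANE, which encodes the elastase that SLPI inhibits, held no counts.

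Of 20 partners, sheddases and kinases of membrane mucins 11 were tested and 0 called, 1 at an unadjusted p under 0.05, with a median of 0.23. MSN, which links membrane proteins to actin, had 212 ± 17.9 CPM in SOX9 sgRNA libraries and 170 ± 30.3 CPM in control libraries (log2 fold change 0.33, SE 0.15, adjusted p = 0.176 by edgeR), and was called with library totals (0.51). EZR, of the same family, had -0.37 (SE 0.20, adjusted p = 0.289 by edgeR), while JUP had 0.36 and ERBB3 0.45, none of them called. MSLN, the partner of MUC16, held 2 counts in SOX9 sgRNA libraries and 0 in control libraries.

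**Figure D5:**
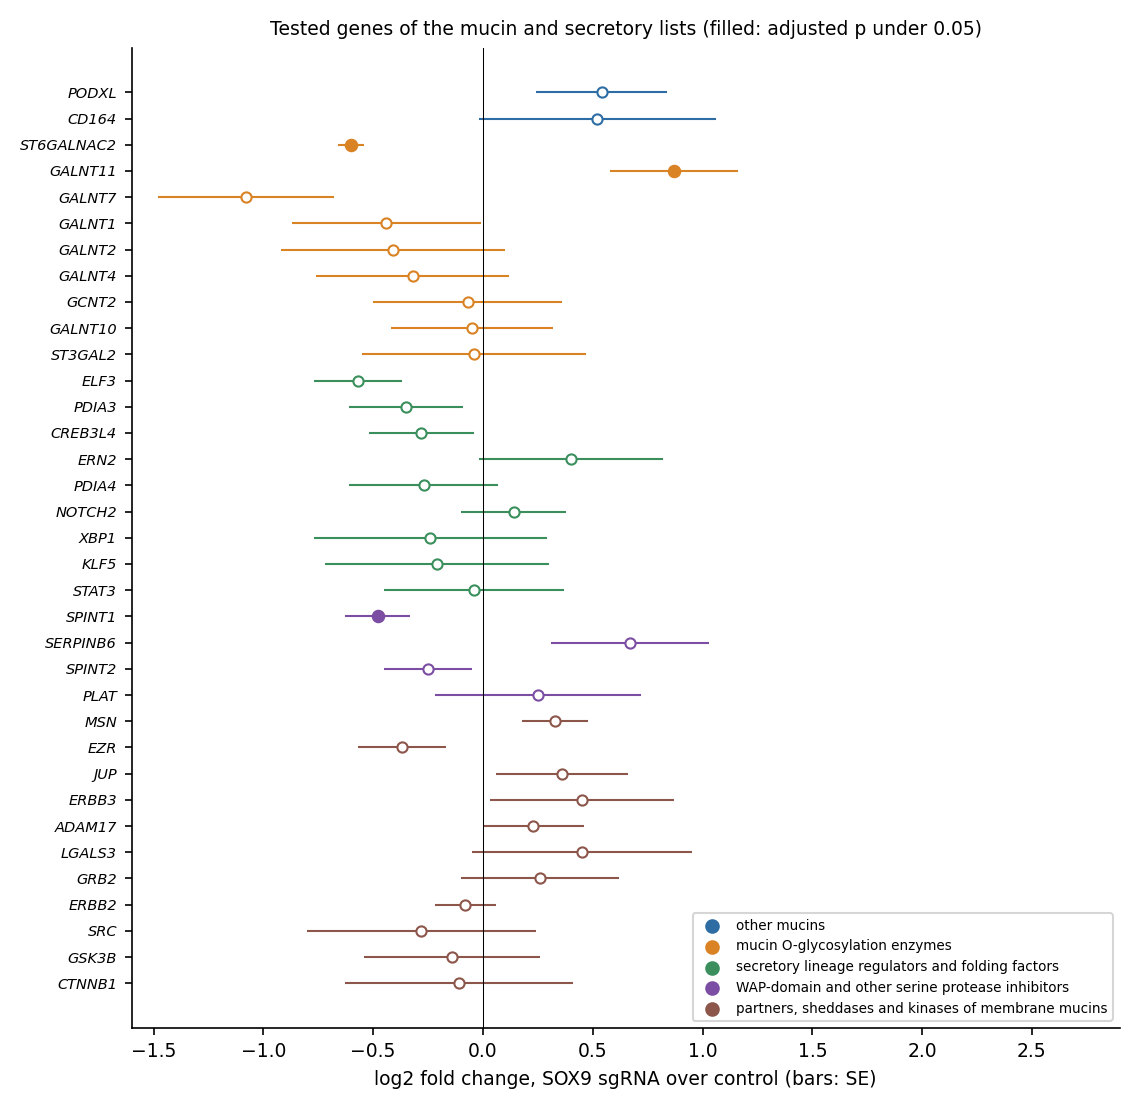
Log2 fold change, SOX9 sgRNA over control, with its standard error for each tested gene of the mucin and secretory lists, coloured by list. The 3 filled points are called: ST6GALNAC2 (-0.60) and SPINT1 (-0.48) lower, GALNT11 (0.87) higher.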

How the data were processed

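The values were whole-number counts of fragments per gene, deposited by the authors as 1 table per library without normalization. The aligner was STAR 2.7.10a, the counter featureCounts (Subread 1.6.2) and the build GRCh37 or hg19, per the submitters' processing notes. Exons of Ensembl GRCh37 release 75 genes without ribosomal RNA and mitochondrial genes were counted with strand setting 1, per the file headers, and a fragment could count for every gene it overlapped. Gene symbols were found for 51452 of 57209 genes and biotypes, from GENCODE release 29, for 51789. Exons on the opposite strand were found with bedtools 2.31.1, for 11223 genes.

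Counts were fitted in R 4.3.3 with edgeR 4.0.16 (filterByExpr with a minimum count of 10, TMM factors, robust quasi-likelihood test) over all 6 libraries, with Benjamini-Hochberg adjustment over 7959 genes and a threshold of 0.05. Fold changes carry a prior count of 0.125. Ratios of summed counts carry exact 95% intervals, conditional on the library sizes. The fit was tested on simulated data. Alternatives were library totals in place of TMM, no filter, a stricter filter of 20 counts in 3 libraries, a prior count of 0.5, DESeq2 1.42.0, a replicate block and each library left out. A prior count of 2 and the counts on the strand opposite list genes were added after seeing the data. The replicate numbers do not pair the groups: deviations of same-numbered libraries correlated by -0.043 to 0.025.

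The members and the 6 gene lists were chosen with earlier results of these data known. The genes named were the members, SOX9, up to 4 tested genes per list with the smallest adjusted p, genes within 100 kb of MUC5B or SLPI with at least 10 counts, and for each tested member the 3 genes with the most similar profile. Genes under the filter were named after their counts were seen, as were SNHG16 and the other genes given as opposite a named gene. Not every gene opposite a named gene is given. FCGBP matched no gene in the tables and was not analysed here. One marker list is not reported here.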

Additional observations from a re-analysis of the deposited data

How the results depend on the processing

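MUC5B and MUC5B-AS1 kept their direction and their side of the threshold under every alternative run, and SLPI did under every one but the 3 left-out libraries named above and the stricter filter, in which it could not be tested. With library totals their log2 fold changes were -1.77, -4.63 and 2.27. MUC5B-AS1 had -4.36 at a prior count of 2. For the members these alternatives are a description too, since the members were chosen on this contrast. MUC5B's share of the pair was 61.5 to 65.7% in SOX9 sgRNA libraries and 19.5 to 19.6% in control libraries when a library was left out, and 4.03% and 0.562% when counted per kb.

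Genes called higher numbered 238, with 625 under library totals, 151 without a filter, 130 with DESeq2 and 161 to 207 with a library left out. Genes called lower numbered 479, with 249 under library totals and 364 to 430 with a library left out. The replicate block gave 175 higher and 399 lower. Calls among the O-glycosylation enzymes, 2 in the report, numbered 1 without a filter, with DESeq2, with the replicate block and on the opposite strand, and 1 to 2 with a library left out. Among secretory regulators 0 to 1 were called with a library left out. Among protease inhibitors 0 were called with library totals, without a filter, with DESeq2 and on the opposite strand, and 0 to 1 with a library left out. Among membrane mucin partners 1 was called with library totals and 1 on the opposite strand. The causes were not tested. Signs turned for PLAT, TOLLIP and ENSG00000267950, none of them called: leaving out a library gave PLAT -0.01 to 0.63, TOLLIP -0.17 to 0.50 and ENSG00000267950 -0.13 to 0.13, and ENSG00000267950 had 0.18 with library totals and 0.03 with the stricter filter. MUC1, MUC16 and MUC5AC had too few counts for the main filter, and the cause of their low counts was not tested.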
